A study of Rattus norvegicus with 6 samples.

Results

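The 10 genes described here encode connective tissue proteins that fibroblasts make besides collagen, and a growth factor receptor that marks these cells. They are Dcn, Lum, Ogn, Fn1, Postn, Tnc, Thbs1, Sparc, Mgp and Pdgfra, found by name as 10 of the 25689 genes in the deposited table. The set was chosen by measured values of these same samples, because Mgp, Postn and Ogn had lower levels after PRATA (perirenal adipose tissue ablation) than after a sham operation, so the differences between the groups given for its members are a description and carry no test. The question put to the set was whether all of its members were lower to a like degree, as a smaller share of fibroblast RNA would give.

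Both groups were spontaneously hypertensive rats (SHRs) with a genotype labelled wild type. In the PRATA group (3 samples) the perirenal adipose tissue had been ablated surgically, and the sham group (3 samples) had the operation without ablation, with 3 rats a group in the study's design. The labels give an age of 6 to 8 weeks for every sample, while the study's methods give an older age at purchase. The L1-L2 dorsal root ganglia (DRGs) were taken 4 weeks after surgery, digested with collagenase and trypsin, and plated briefly so that the faster adhering glial cells stayed on the dish while neurons were flushed off. The RNA is thus that of a neuron-enriched suspension and holds what other ganglion cells remained in it. Of 18 sensory neuron markers, 18 were detected in every sample, with a summed level of 10032 to 22054 CPM (counts scaled to one library size by edgeR's TMM factors).

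Fibroblasts lie in the capsule of a ganglion and between its nerve fibres, where they lay down the extracellular matrix. Collagen fibres give that matrix its strength, small leucine-rich proteoglycans bind the fibres and set their spacing, fibronectin links matrix to cell surface integrins, and matricellular proteins such as periostin, tenascin C and thrombospondin 1 signal to cells and are known to be made in greater amounts in wounds and injured nerve. Schwann cells and satellite glia also make several of these proteins, so the genes are not markers of fibroblasts alone. In RNA from a mixed suspension, fewer cells of a type and less RNA per cell cannot be told apart.

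Total counts lay between 5892967 and 15226952 per sample, and 3 counts, taken as the floor of detection, came to 0.207 to 0.468 CPM. After the filter on low counts 14919 genes were tested, and all 10 members were among them. After Benjamini-Hochberg adjustment of p from the edgeR quasi-likelihood fit, 0 of the 14919 genes stood under 0.05 (2734 had an unadjusted p under 0.05, and DESeq2 and limma voom with sample quality weights placed 728 and 1173 genes under the adjusted threshold). The edgeR fit without sham replicate 2, the sample with the lowest total count, placed 721 genes there. With any other single sample left out it placed 0, and without both PRATA replicate 3 and sham replicate 1 it placed 13. PRATA replicate 3 and sham replicate 1 stood apart from the other samples in the share of their counts on the 7SL RNA gene Rn7sl1, at 5.40% and 5.63% against 1.25% to 1.52%, a split that crosses the operation.

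The level of each member was lower on average after PRATA than after the sham operation, but by very unequal amounts. The log2 fold change ran from -1.78 for Postn to -0.06 for Pdgfra, with a median of -0.89 over the 10 members, beside 0.02 over all genes tested, of which 48% had a log2 fold change below 0. At an unadjusted p under 0.05 and a log2 fold change beyond -1, thresholds that 3.23% of genes tested passed in this direction, 4 members were past the line (Postn, Mgp, Ogn and Tnc), and 0 were past it upward, where 1.17% of genes tested lay. The same 4 members had groups that did not overlap, with every PRATA sample below every sham sample, as 11.2% of genes tested did. Thbs1, at -0.95, was the member just outside the fold threshold, and Tnc, at -1.39, the one just inside. Mgp, Postn and Ogn were picked for their low values and had the lowest log2 fold changes, so unequal amounts were partly built in. Since the contrast was used to draw up the set, nothing is read from these counts or from that inequality.

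**Figure D1:**
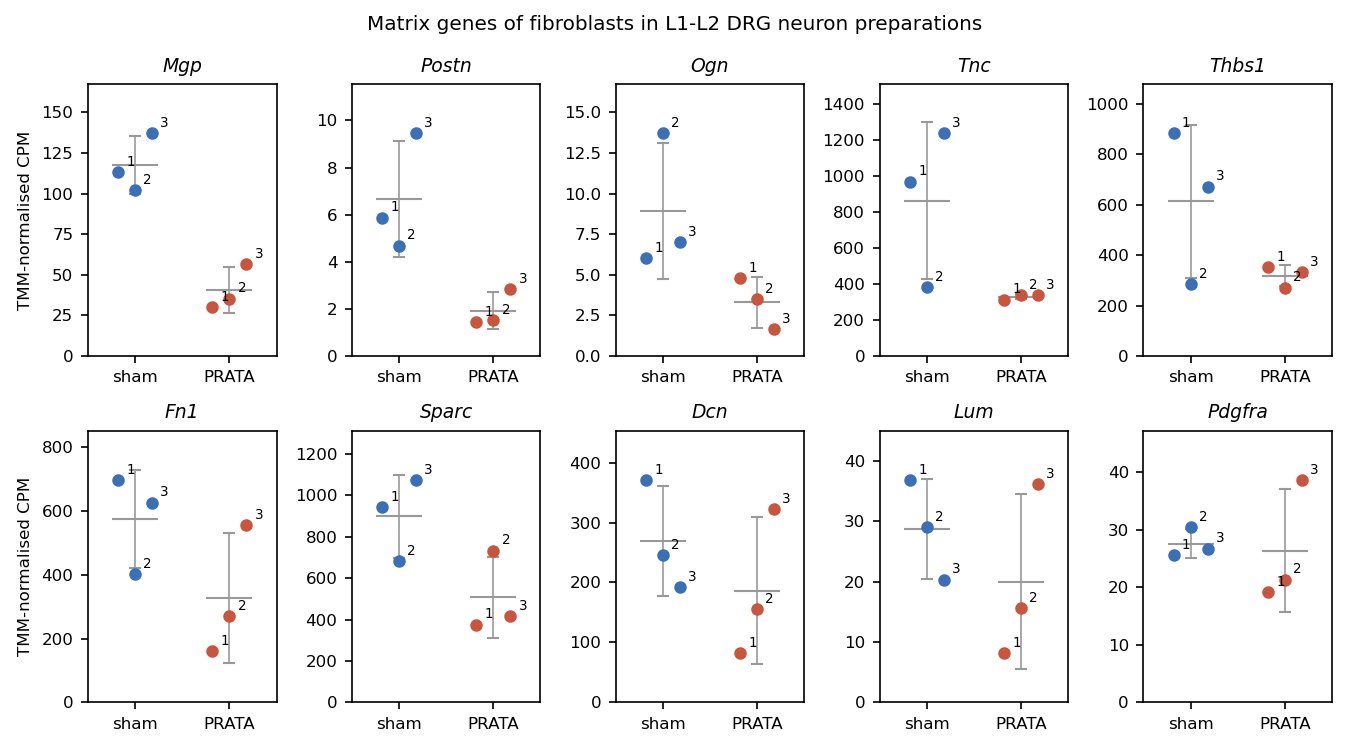
TMM-normalised CPM of the 10 genes (vertical axis, from 0) in sham samples (blue) and PRATA samples (red), with replicate numbers beside the points and the mean ± SD of each group (n = 3) in grey. For Mgp, Postn, Ogn and Tnc all 3 PRATA samples lie below all 3 sham samples, whereas PRATA replicate 3 reaches the sham range for Fn1, Dcn and Lum and is the highest sample for Pdgfra.

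The small leucine-rich proteoglycans of the set are Dcn, Lum and Ogn. Ogn was picked for its low values, so its lower fold change beside the others is not read. The log2 ratio of Ogn to Dcn within samples had overlapping groups. Dcn (ENSRNOG00000004554) encodes decorin, which coats collagen fibrils and binds TGF-beta. PRATA replicates 1, 2 and 3 held 81.8, 156 and 322 CPM of it and sham replicates 1, 2 and 3 held 371, 246 and 192 CPM. The groups overlapped, since PRATA replicate 3 lay above sham replicates 2 and 3. The means were 186 ± 123 CPM for PRATA against 270 ± 92.2 CPM for sham (SD, n = 3 each), a log2 fold change of -0.53 (standard error 0.47), about the size of its error.

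Lum (ENSRNOG00000004610) encodes lumican, a proteoglycan that regulates the width of collagen fibrils. It was at 8.13, 15.6 and 36.1 CPM in the PRATA replicates and 36.8, 29.0 and 20.3 CPM in the sham replicates, in the same order as Dcn. PRATA replicate 3 again lay within the sham range, and the log2 fold change was -0.52 (standard error 0.48). Within each sample the 2 genes kept almost one ratio: the level of Dcn was 8.46 to 10.1 times that of Lum in all 6 samples, a spread of 1.19 times, although Dcn itself spanned 4.54 times from its lowest sample to its highest. Counts here are not per length, so such a ratio compares samples and not the levels of the genes. Dcn and Lum are next to each other on rat chromosome 7 in RefSeq's GRCr8 annotation, followed by the proteoglycan genes Kera and Epyc, whose levels were under 1 CPM in every sample.

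Ogn (ENSRNOG00000047786) encodes osteoglycin, also called mimecan, a member of the same protein family that lies in another proteoglycan gene cluster, with Omd and Aspn, on chromosome 17. It was at 4.78, 3.51 and 1.66 CPM in the PRATA replicates and 6.01, 13.7 and 6.99 CPM in the sham replicates. The groups did not overlap, with the lowest sham sample 1.26 times the highest PRATA sample, but the order within PRATA was the reverse of that of Dcn and Lum. The means were 3.31 ± 1.57 CPM and 8.91 ± 4.21 CPM (SD, n = 3 each), a log2 fold change of -1.43 (standard error 0.47). Its level rests on 21 to 88 counts per sample, and without sham replicate 2, the highest, the log2 fold change was -0.99 and no longer past the thresholds. In the RefSeq annotation Ogn overlaps the gene Cenpp, which was at 0 to 1.03 CPM. Noncoding RNA genes overlap Dcn, Tnc and Thbs1 there, and whether the counting used strand is not given in the sources used here.

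Fn1 (ENSRNOG00000014288) encodes the adhesive glycoprotein that cells grip through integrins. Its level was 160, 270 and 556 CPM in the PRATA replicates and 698, 402 and 627 CPM in the sham replicates. Only PRATA replicate 3 overlapped the sham range, lying above sham replicate 2. The means were 328 ± 205 CPM and 576 ± 155 CPM (SD, n = 3 each), and the log2 fold change was -0.81 (standard error 0.44).

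Among the matricellular proteins, Postn (ENSRNOG00000012660) had the lowest log2 fold change of the set. It encodes periostin, which binds collagen and integrins and is made by activated fibroblasts and, in injured nerve, by Schwann cells. Its level was 1.42, 1.51 and 2.85 CPM in the PRATA replicates and 5.87, 4.68 and 9.45 CPM in the sham replicates, from 11 to 36 and 30 to 100 counts. The groups did not overlap, and the lowest sham sample was 1.64 times the highest PRATA sample. The group means differed 3.46-fold, with 1.93 ± 0.798 CPM in PRATA and 6.67 ± 2.48 CPM in sham (SD, n = 3 each) and a log2 fold change of -1.78 (standard error 0.42).

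Tnc (ENSRNOG00000058645) encodes tenascin C, a large matrix protein of development, wounds and nerve injury. It was at 313, 336 and 339 CPM in the PRATA replicates and 969, 384 and 1237 CPM in the sham replicates. The PRATA samples were nearly level, while sham replicate 2 was close above them at 1.13 times the highest PRATA sample and the other sham samples were far higher. The log2 fold change was -1.39 (standard error 0.39), and between -1.74 without sham replicate 2 and -1.03 without sham replicate 3.

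Thbs1 (ENSRNOG00000045829) encodes thrombospondin 1, which activates latent TGF-beta and restrains vessel growth. Its level was 351, 271 and 332 CPM in the PRATA replicates and 883, 285 and 672 CPM in the sham replicates, a pattern close to that of Tnc. Sham replicate 2 lay inside the PRATA range, so that the groups overlapped, and the other sham samples were again the high ones. The log2 fold change was -0.95 (standard error 0.38). Without sham replicate 2 it was -1.29 and past the thresholds.

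Sparc (ENSRNOG00000012840) encodes osteonectin, a secreted protein that binds collagen and calcium. It was at 376, 733 and 417 CPM in the PRATA replicates and 944, 681 and 1074 CPM in the sham replicates. Here PRATA replicate 2 was the high one of its group and lay above sham replicate 2, unlike in any other member. The log2 fold change was -0.82 (standard error 0.31), and -1.18 without PRATA replicate 2.

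Mgp (ENSRNOG00000005695) encodes matrix Gla protein, a vitamin K-dependent inhibitor of calcification that fibroblasts and vessel wall cells secrete. Its level was 30.1, 35.3 and 56.4 CPM in the PRATA replicates and 113, 102 and 137 CPM in the sham replicates. The groups were farther apart than for any other member, with the lowest sham sample 1.81 times the highest PRATA sample. The means were 40.6 ± 13.9 CPM and 117 ± 17.9 CPM (SD, n = 3 each), a log2 fold change of -1.53 with the lowest standard error of the set (0.26). With each sample left out in turn it stayed between -1.84 and -1.39.

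Pdgfra (ENSRNOG00000002244) encodes the alpha receptor for platelet-derived growth factor, which marks fibroblasts and, in the central nervous system, oligodendrocyte precursors. It was at 19.1, 21.3 and 38.6 CPM in the PRATA replicates and 25.6, 30.4 and 26.7 CPM in the sham replicates. PRATA replicate 3 was the highest of all 6 samples and the other PRATA samples were the lowest, so that the sham samples lay between them. The means were 26.3 ± 10.7 CPM and 27.6 ± 2.52 CPM (SD, n = 3 each), and the log2 fold change of -0.06 (standard error 0.28) turned positive without PRATA replicate 1 (0.09), PRATA replicate 2 (0.07) or sham replicate 2 (0.01).

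Added together, the 10 genes took 1345, 1843 and 2100 CPM in the PRATA replicates and 4053, 2177 and 4002 CPM in the sham replicates. The highest PRATA sample and sham replicate 2 were thus almost level, and sham replicates 1 and 3 stood far above. Most of the sum in every sample was Fn1, Tnc, Thbs1 and Sparc, so it says little of the other members.

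**Figure D2:**
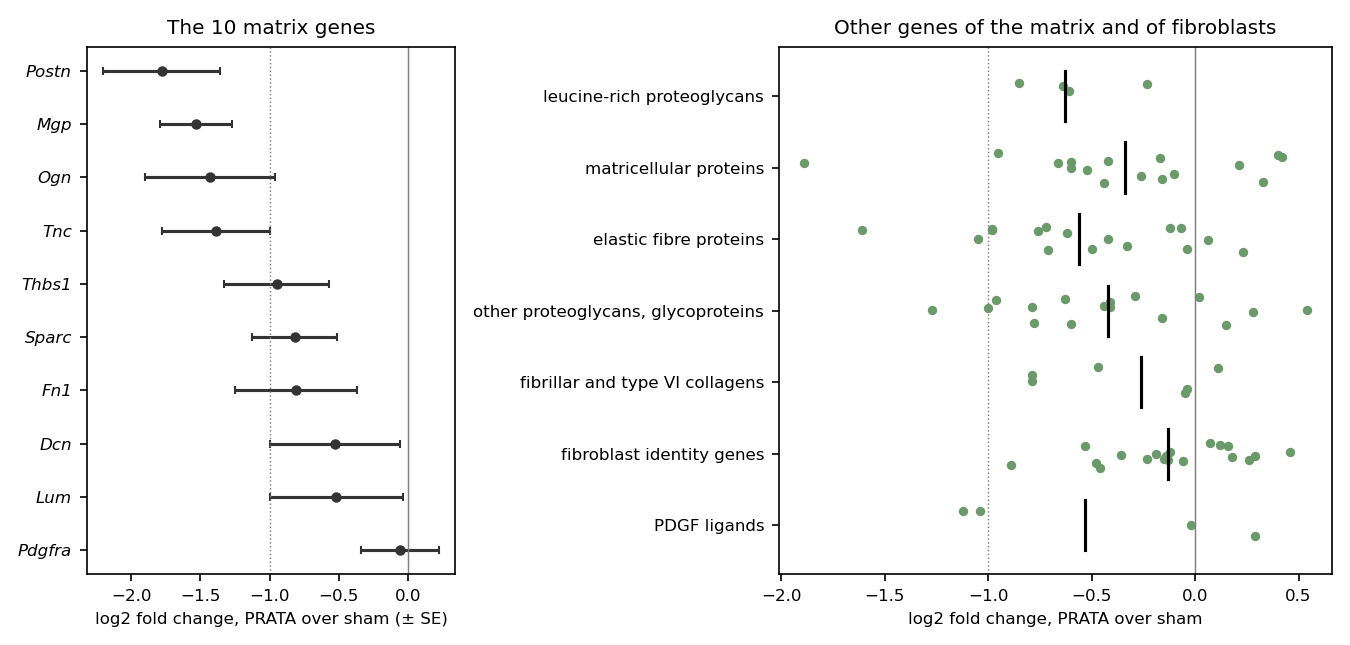
Left, log2 fold change of PRATA over sham (horizontal axis) with its standard error for the 10 genes. Right, the same without error bars for other genes of the matrix and of fibroblasts, a point per gene tested and the median of each list as a black bar. The dotted line marks a log2 fold change of -1. Postn, Mgp, Ogn and Tnc lie beyond it and Pdgfra lies at -0.06, while the medians of the other lists lie between -0.63 and -0.13.

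The sequences just upstream of the annotated starts are given as a description, since the choice of the set partly built in the unequal fold changes. RefSeq's promoter table (GRCr8) held 7 of the 10 members, and the 250 bases before the start are printed 5′ to 3′ for 3 of the members past the thresholds and for Lum and Pdgfra, with fold changes nearer 0. Capitals mark matches, on either strand, to the AP-1 motif, spelled TGANTCA, the TEAD motif, spelled GGAATG, the TATA box, spelled TATAAA, or the CArG box of serum response factor.
Postn, chr2:140677811-140678060, plus strand: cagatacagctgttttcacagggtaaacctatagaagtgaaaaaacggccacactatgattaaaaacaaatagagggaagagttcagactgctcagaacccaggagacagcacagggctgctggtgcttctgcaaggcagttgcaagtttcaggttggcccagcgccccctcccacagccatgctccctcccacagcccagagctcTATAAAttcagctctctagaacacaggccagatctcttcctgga
Ogn, chr17:15258996-15259245, minus strand: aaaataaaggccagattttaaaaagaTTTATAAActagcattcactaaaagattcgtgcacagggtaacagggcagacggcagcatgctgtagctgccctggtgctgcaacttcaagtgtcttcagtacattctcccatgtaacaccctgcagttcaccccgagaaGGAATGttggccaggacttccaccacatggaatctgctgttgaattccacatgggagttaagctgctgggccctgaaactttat
Tnc, chr5:82476132-82476381, minus strand: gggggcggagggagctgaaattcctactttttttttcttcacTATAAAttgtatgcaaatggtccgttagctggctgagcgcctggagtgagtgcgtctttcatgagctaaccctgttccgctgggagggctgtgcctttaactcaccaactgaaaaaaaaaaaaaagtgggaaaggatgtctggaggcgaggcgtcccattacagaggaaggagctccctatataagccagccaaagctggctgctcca
Lum, chr7:34245456-34245705, plus strand: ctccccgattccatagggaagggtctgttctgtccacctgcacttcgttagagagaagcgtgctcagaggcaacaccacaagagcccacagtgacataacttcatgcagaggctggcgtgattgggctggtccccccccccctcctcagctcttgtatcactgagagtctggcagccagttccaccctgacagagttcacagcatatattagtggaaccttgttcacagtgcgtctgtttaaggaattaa
Pdgfra, chr14:33408517-33408766, minus strand: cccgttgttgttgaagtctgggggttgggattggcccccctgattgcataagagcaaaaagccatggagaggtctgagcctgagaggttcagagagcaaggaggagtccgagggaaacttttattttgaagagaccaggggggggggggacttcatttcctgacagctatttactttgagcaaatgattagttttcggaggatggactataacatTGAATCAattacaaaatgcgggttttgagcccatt
Postn held the TATA box letters 44 to 39 bases before its start, and Tnc the same letters 208 to 203 bases before. The search takes exact letters only, so near forms, such as tatataa closer to the start of Tnc, are not marked. Ogn held the TEAD letters and a pair of overlapping matches to the TATA box, one on each strand. Thbs1 and Sparc, not printed, each held 1 TEAD match, in Sparc on the other strand. Pdgfra was the only one of the 7 with an AP-1 match, Lum had no match, and none of the 7 matched the CArG box. Over all 33469 promoters of this length, 6.34% held the AP-1 letters, 12.1% the TEAD letters, 12.9% the TATA box and 1.5% the CArG box. These matches are letters in a short window and are not evidence of binding.

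How the members varied among samples of the same group does not depend on the contrast that chose them, and it too differed between members. The mean of each group was removed from the log2 CPM and the deviations were correlated between members over the 6 samples, which share libraries and depth. With the group means removed, fewer independent values than samples remain, so each r is a loose description and decides nothing about the set. The mean Pearson r over the 45 pairs was 0.21, with a range of -0.96 to 0.99. It was over 0.8 for 8 pairs and below 0 for 14. No share over pairs of all genes stands beside these counts, so nothing particular to the members is read from them.

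Dcn, Lum, Fn1 and Pdgfra deviated together. Pearson's r of the deviations was 0.99 for Dcn with Lum, 0.87 for Dcn with Fn1 and 0.79 for Dcn with Pdgfra. In PRATA replicate 3 these 4 genes lay 0.62 to 1.11 above the mean of their group on the log2 scale, and in PRATA replicate 1 they lay 0.39 to 1.02 below it. Dcn, Lum and Fn1 were each highest within their group in PRATA replicate 3 and sham replicate 1, the libraries with the high Rn7sl1 share, and the part of that share in their pattern was not tested. Pdgfra was not highest in sham replicate 1, where it lay 0.10 below its group mean. Mgp deviated with Postn (r = 0.93), Fn1 (r = 0.92) and Pdgfra (r = 0.82), and Tnc with Thbs1 (r = 0.87), so that the groupings overlap.

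Tnc and Thbs1 hardly varied among the PRATA samples, with deviations of -0.22 to 0.15, but lay 1.01 and 0.96 below their group mean on the log2 scale in sham replicate 2. Ogn was opposed to the rest: its deviations were negatively correlated with those of every other member, from r = -0.96 with Fn1 to r = -0.27 with Sparc. Sparc had no r above 0.58 with another member.

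**Figure D3:**
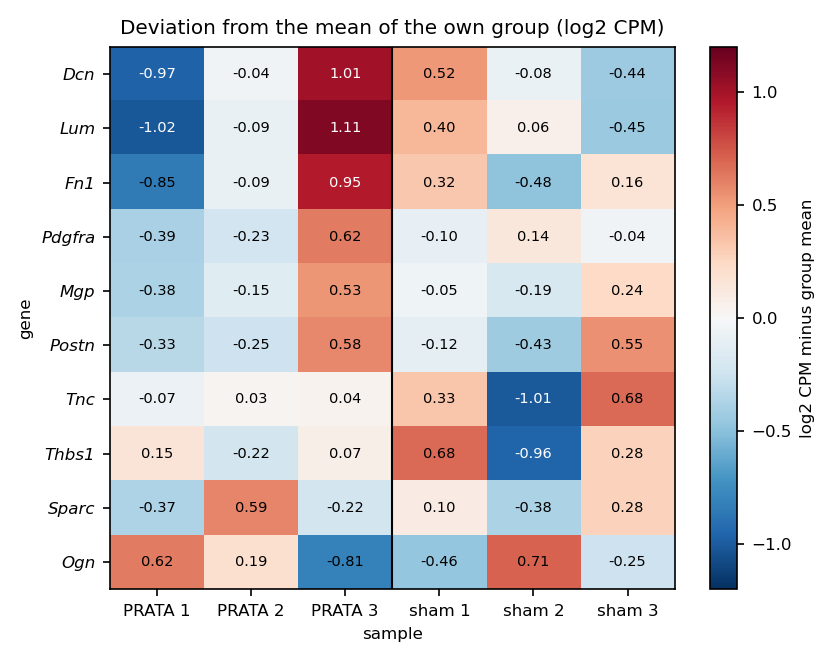
Deviation of each gene (rows) from the mean log2 CPM of its own group in each sample (columns), red above and blue below, with the value printed. Dcn, Lum, Fn1 and Pdgfra are low in PRATA replicate 1 and high in PRATA replicate 3, Tnc and Thbs1 are low in sham replicate 2, and Ogn has signs opposed to those of Fn1.

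Ratios within a sample do not depend on the scaling between samples. Of the 45 ratios between members, 2 had groups that did not overlap, and both were to Pdgfra. Among single genes tested, the groups did not overlap for 11.2% with PRATA lower and 11.6% with PRATA higher. Those shares are over single genes, while the 45 ratios share members, so they are no background for the 2 of 45. No share for ratios between other genes is given, and nothing is read from the count. The ratio of Mgp to Pdgfra was 1.57, 1.66 and 1.46 in the PRATA replicates and 4.39, 3.36 and 5.13 in the sham replicates. It lay within a narrow band after PRATA although Pdgfra itself ranged over 2.02 times there.

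The ratio of Postn to Pdgfra was 0.0743, 0.0712 and 0.0738 in the PRATA replicates and 0.229, 0.154 and 0.353 in the sham replicates. It too was nearly level among the PRATA samples. Postn had only 11, 19 and 36 counts in PRATA replicates 1, 2 and 3, however. Counting error is larger than the differences between these ratios, so nothing is read from their closeness. The ratio of Postn to Mgp, in contrast, was 0.0429 to 0.0505 in the PRATA replicates and 0.0458 to 0.0689 in the sham replicates, with overlapping groups. Against the mean log2 CPM of the other 9 members, Postn and Mgp were lower after PRATA in every sample and Pdgfra higher, and the other 7 members overlapped. These ratios come from the contrast that chose the set and are given without a test.

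**Figure D4:**
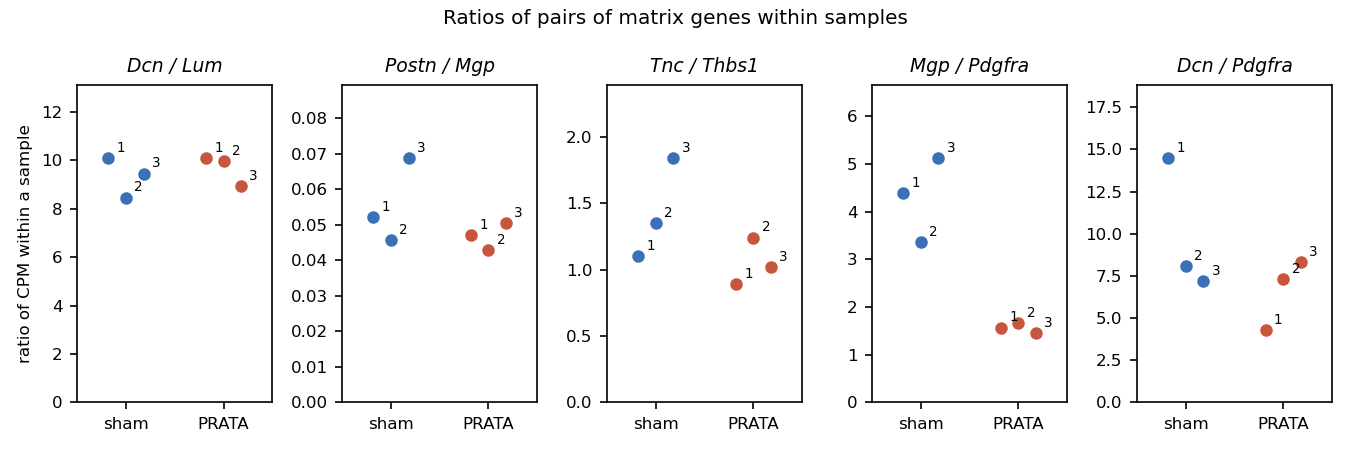
Ratio of the CPM of 2 genes within each sample (vertical axis, from 0), with replicate numbers, in sham (blue) and PRATA (red) samples. The Dcn to Lum ratio lies between 8.46 and 10.1 in every sample, and the Mgp to Pdgfra ratio lies between 1.46 and 1.66 after PRATA and between 3.36 and 5.13 after sham.

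Other genes of the matrix were compared through 4 lists without collagens, of 60 genes, of which 56 matched the table and 52 were tested. Of these 52, 42 had a log2 fold change below 0, and the median was -0.44. In all, 9 of the 52 had p under 0.05 before adjustment, each lower after PRATA (17.3%, beside 10.1% of all genes tested), and 0 were higher (beside 8.19%). Only 2 of the 52, Ccn2 and Mfap4, were also past the fold threshold, a share near that of all genes tested (3.23%). For 5 of the 52 the groups did not overlap with PRATA lower (9.62%, beside 11.2% of all genes tested), and for 1 with PRATA higher (beside 11.6%). None passed an adjusted p under 0.05 in the edgeR fit of all samples.

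Of the other leucine-rich proteoglycans 4 were tested, with a median log2 fold change of -0.63. Bgn, which encodes biglycan, the nearest relative of decorin, was at 26.7, 58.0 and 42.9 CPM in the PRATA replicates and 81.7, 73.2 and 74.8 CPM in the sham replicates. Its groups did not overlap, unlike those of Dcn, and its log2 fold change was -0.85 with SE 0.27 (edgeR adjusted p = 0.188). Fmod, Prelp and Aspn had values of -0.64, -0.23 and -0.61 and overlapping groups.

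Of 16 further matricellular genes tested, 12 had a log2 fold change below 0 and the median was -0.34. Ccn2, which encodes connective tissue growth factor, was at 93.1, 81.6 and 228 CPM in the PRATA replicates and 531, 326 and 632 CPM in the sham replicates. The groups did not overlap, and the log2 fold change was -1.89 with SE 0.44 (edgeR adjusted p = 0.156), farther from 0 than in any of the 10 members. Its relative Ccn1 had overlapping groups and a log2 fold change of -0.26, and Thbs2 and Sparcl1, relatives of Thbs1 and Sparc, -0.44 and -0.10.

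Of 16 elastic fibre genes tested, 14 had a log2 fold change below 0 and the median was -0.56. The 3 with the smallest p were Efemp1 (log2 fold change -0.98, adjusted p = 0.182, edgeR), the fibulin gene Fbln2 (-0.98, adjusted p = 0.216, edgeR) and Ltbp2 (-0.72, adjusted p = 0.240, edgeR), which encodes a latent TGF-beta binding protein. Only Efemp1 of these had groups that did not overlap.

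Among 16 other proteoglycans and glycoproteins tested, 12 were below 0, with a median of -0.42. Abi3bp was at 25.6 ± 6.81 CPM after PRATA and 50.0 ± 7.27 CPM after sham (SD, n = 3 each), a log2 fold change of -0.96 (adjusted p = 0.159, edgeR). Ncan and Bcan, proteoglycans of nervous tissue that glial cells and neurons make, had values of -0.78 and -0.79 (adjusted p = 0.185 and 0.237, edgeR).

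The ligands of the receptor were measured in the same samples. Pdgfa, whose product signals through the alpha receptor, was at 36.4 ± 4.87 CPM after PRATA and 37.0 ± 3.65 CPM after sham (SD, n = 3 each), a difference within the spread of either group. Pdgfd, whose product acts through the beta receptor, was at 5.08 ± 2.52 CPM and 11.2 ± 1.5 CPM, with groups that did not overlap (log2 fold change -1.12, SE 0.36, edgeR adjusted p = 0.194). Pdgfb, whose product binds both receptors, had -1.04 (SE 0.37, edgeR adjusted p = 0.216) with overlapping groups, and Pdgfc 0.29 (SE 0.59).

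Genes used to mark fibroblasts, though not all of them in fibroblasts alone, were listed apart from the matrix genes. Since Mgp, Postn and Ogn were picked for their low values, a list lying nearer to 0 than these is no finding. Of 19 fibroblast identity genes tested, 12 had a log2 fold change below 0 and the median was -0.13. The only one with an unadjusted p under 0.05 was Vim, the vimentin gene, which most non-neuronal cells express, at -0.89 (SE 0.32, edgeR adjusted p = 0.216). The list also holds Thy1, which neurons make, at 0.29. The others ran from -0.53 for Prrx1, a transcription factor of mesenchyme, to 0.46 for Clec3b, and Tcf21 was at 0 in 4 of the 6 samples. The summed level of the list was 1832 to 3012 CPM after PRATA and 2810 to 3769 CPM after sham. Much of that sum was Vim, with means of 954 CPM after PRATA and 1771 CPM after sham, and Thy1, with 692 and 565 CPM. The sum is thus not a measure of fibroblast RNA alone.

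The 6 fibrillar and type VI collagen genes tested centred on a median of -0.26 on the log2 scale, and 0 had p under 0.05 before adjustment. Col1a1 was at 105, 280 and 819 CPM in the PRATA replicates and 821, 387 and 459 CPM in the sham replicates, and Col3a1 at 109, 263 and 760 CPM and 563, 279 and 209 CPM. Within the PRATA group both had the order seen for Dcn and Lum, lowest in replicate 1 and highest in replicate 3, with log2 fold changes of -0.47 and 0.11 (standard error 0.65 each). Over the 6 samples, the within-group deviations of the mean log2 CPM of these collagens correlated with those of Dcn at r = 0.91, Fn1 at 0.89 and Lum at 0.84, but with those of Postn at 0.47, Tnc at 0.40 and Ogn at -0.88.

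Markers of other ganglion cells were compared in the same way. All 18 sensory neuron markers had a log2 fold change above 0, with a median of 0.51 and a summed level of 14363 to 22054 CPM after PRATA and 10032 to 15316 CPM after sham. All 7 satellite glial cell markers had a log2 fold change below 0, with a median of -0.48 and a summed level of 3073 to 5831 CPM after PRATA and 4032 to 8011 CPM after sham. The deviations of their mean correlated with those of Sparc at r = 0.93, against -0.04 for Dcn, and those of sensory neuron markers with Sparc at r = -0.85. For the fibroblast identity list, r was 0.91 with Dcn and with Lum, 0.65 with Pdgfra, 0.59 with Fn1 and 0.35 with Mgp. It was 0.01 with Postn, -0.09 with Thbs1, -0.14 with Sparc, -0.31 with Tnc and -0.45 with Ogn. Like those with collagens, these r values are taken from many over 6 samples with group means removed. No source of a member's RNA is read from them.

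Of 10 Schwann cell markers, 7 were above 0 (median 0.49, summed level 1062 to 1949 CPM after PRATA and 1161 to 1508 CPM after sham), and 3 were past the thresholds, the myelin genes Ncmap at 2.44 and Prx at 1.39 upward and Sox10, a transcription factor of glia, at -1.63 downward (edgeR adjusted p = 0.169, 0.182 and 0.156). Over all genes tested, 3.23% passed them downward and 1.17% upward. In the other marker lists the neuron gene Pou4f1 (1.02), the macrophage gene Lyz2 (1.14) and the endothelial gene Vwf (1.47) also passed upward (edgeR adjusted p = 0.156, 0.237 and 0.236). No satellite glial or mural cell marker passed. Macrophage markers (8 of 10 above 0, median 0.71, summed level 69.7 to 207 CPM after PRATA and 46.9 to 114 CPM after sham), endothelial markers (8 of 9, median 0.32, 74.0 to 154 CPM and 30.4 to 181 CPM) and mural cell markers (7 of 9, median 0.22, 146 to 221 CPM and 105 to 227 CPM) had summed levels that overlapped between the groups. Apart from the macrophage gene Cx3cr1 in sham replicate 1, none of the markers matched in these lists was at 0 in any sample. The part of these cell types in the levels of the 10 genes was not tested.

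The genes most like the set in their pattern were found by the Pearson correlation of log2 CPM with the mean of the standardised members, over 6 samples and among 9242 genes of at least 10 CPM on average. That mean was lower in every PRATA sample than in every sham sample, so the search favours genes with the contrast that chose the members, and the highest of so many values over 6 samples are a description only. The 5 highest were Rab5c (r = 0.996), Tbc1d12 (r = 0.996), Best1 (r = 0.995), Smad3 (r = 0.993) and LOC100359951 (r = 0.992). Smad3, a transducer of TGF-beta signals, was at 7.62, 19.5 and 38.4 CPM in the PRATA replicates and 107, 49.9 and 95.8 CPM in the sham replicates. Rab5c ran through the same order of samples within a far narrower range, 65.2 to 82.4 CPM.

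Leaving out single samples changed which members were past the thresholds. Without PRATA replicate 3, Dcn, Lum and Fn1 joined the other 4, with log2 fold changes of -1.18, -1.26 and -1.42. Without PRATA replicate 1 they were -0.21, -0.18 and -0.52. Without PRATA replicate 3 and sham replicate 1, the samples with the high Rn7sl1 share, the values were -0.88, -1.04 and -1.27, and that of Pdgfra was -0.50. Mgp, Postn and Tnc were past the thresholds in each of these fits.

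**Figure D5:**
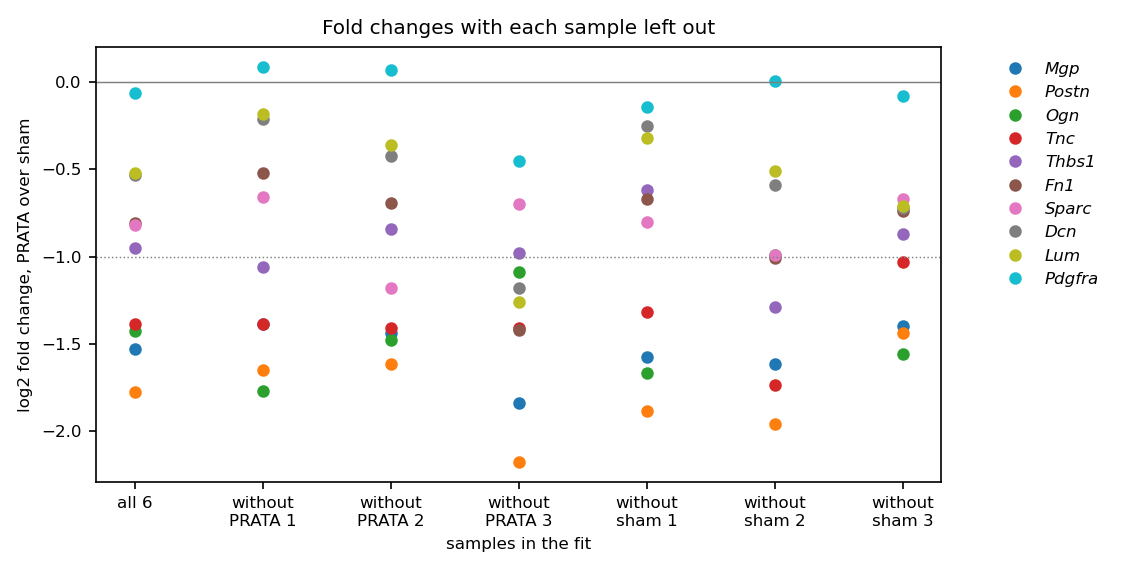
Log2 fold change of PRATA over sham (vertical axis) for the 10 genes (colours) with all 6 samples and with each sample left out (horizontal axis). Dcn, Lum and Fn1 move from between -0.81 and -0.52 to between -1.42 and -1.18 without PRATA replicate 3, Pdgfra crosses 0, and Mgp, Postn and Tnc lie below -1 throughout.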

How the data were processed

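RNA from 6 neuron preparations of L1-L2 DRGs was sequenced as stranded, ribosomal RNA-depleted libraries. The deposited values are raw counts of reads per gene, made by the authors without normalization. The paper names HISAT2, StringTie and Cuffdiff and the submitters' processing notes name STAR 2.7.3a, RSEM and DESeq2, and which of them made the counts, the genome build, the annotation and the strand setting are not given in the sources used here. The members and gene lists were chosen with earlier results of these data known.

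The fits were made with edgeR 4.0.16 (alternatives with DESeq2 1.42.0 and limma 3.58.1) under R 4.3.3. Genes passing filterByExpr (minimum count 10, minimum total 15) were scaled by TMM (factors 0.953 to 1.10) and fitted with the quasi-likelihood model without covariates, two-sided. The standard error is the size of the log2 fold change divided by the square root of F. Log2 CPM used a prior count of 2. Correlations and ratios are descriptions. Floors of detection cover counting error only, and SDs and standard errors include the spread between samples. Total counts per sample lay between 5892967 and 15226952, so depth limits Postn and Ogn most. The fit was tested on simulated data.

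Of 158 list genes, 151 matched the table. All members were named. From each list other than cell type markers, up to 3 genes in each direction with the smallest p under 0.05 were named, with Col1a1, Col3a1 and the 5 genes most like the set in pattern. Other list genes, among them relatives of the members, were named after their values were seen. Gene neighbours and promoters came from RefSeq (GRCr8). Figures used Python 3.11.15 and matplotlib 3.10.9.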

Additional observations from a re-analysis of the deposited data

How the results depend on the processing

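Over 15 alternatives (other scaling, filters, DESeq2, a voom fit that weights samples by quality, a block on replicate number, leaving out each sample, the 4 samples other than PRATA replicate 3 and sham replicate 1, protein-coding genes alone), the median log2 fold change of the 10 members lay between -1.22 and -0.74 and that of the 52 other matrix genes between -0.58 and -0.13, without a change of sign. The number of members past an unadjusted p under 0.05 and a log2 fold change beyond -1 was 4 to 7 with each sample left out (7 without PRATA replicate 3). Ogn dropped out, and Thbs1 came in, without sham replicate 2. For the other matrix genes the number was 2, and became 4 with DESeq2, 9 with voom, 5 with protein-coding genes alone and 1 to 7 with each sample left out (1 without sham replicate 1, 7 without PRATA replicate 2 or 3, 6 without sham replicate 2 and 5 without sham replicate 3). Over all genes, 657 passed these thresholds in either direction, 482 of them lower. The number became 1379 without a filter (1159 lower), 1002 with voom (662 lower), 994 in the 4 samples (573 lower) and 485 to 1034 with each sample left out (1034 without sham replicate 2, 673 lower). The cause was not tested. The mean within-group correlation among members, computed under 8 of these (other scaling and each sample left out), lay between 0.12 and 0.26. Of the 10 members Pdgfra alone changed sign, in the fits without PRATA replicate 1 or 2 or sham replicate 2.

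Same-numbered samples were not paired by the labels, and their deviations correlated across genes at -0.35, -0.05 and -0.35. In the fit with a replicate block, 519 genes passed the thresholds (372 lower), 4 members did, their median log2 fold change was -0.91, and the other matrix genes gave a median of -0.38 with 2 past the thresholds. The design has 3 samples a group, and Postn (11 to 100 counts per sample) and Ogn (21 to 88) were the most shallowly counted.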
